A study of Mus musculus with 10 samples.

Results

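The genes described are 7 markers of the cardiac nerve supply, taken by symbol from the 23337 genes of a right atrial RNA-seq table, and all 7 were present. Mbp, Sox10, S100b and Gfra3 mark Schwann cells or related glia, Th and Dbh mark noradrenergic neurons, and Prph marks peripheral neurons. Of these, Mbp, Dbh and S100b had enough reads to be tested. Sox10, Gfra3, Th and Prph were too low to read. Here this means that a gene failed the expression filter or had a median of 3 reads or fewer in both groups. The filter asks for the same share of a library's counts as 10 reads in a library of median size, in at least 4 libraries. A larger library thus needs more than 10 reads. Mbp was 2.03-fold lower and Dbh 3.44-fold lower in mice labelled Tbx5 mutant than in mice labelled control, and S100b did not pass the test.

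Schwann cells are the glia of peripheral nerves. Myelinating Schwann cells wrap single axons in a sheath built from proteins such as MBP and PMP22, whereas nonmyelinating Schwann cells, which accompany most fine autonomic fibres, express SOX10 and S100B with little myelin protein. The heart is supplied by sympathetic axons, whose cell bodies mostly lie outside it, and by small intracardiac ganglia on the atria, which are mainly cholinergic. Noradrenaline is made in sequence by tyrosine hydroxylase (TH), DOPA decarboxylase (DDC) and dopamine beta-hydroxylase (DBH), which sits in the storage vesicle. The RNA of an axon's neuron is mostly kept in its cell body, so that atrial RNA need not contain the transcripts of sympathetic neurons.

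Adult mice of a mixed strain were used, labelled 8-10 weeks old, although the extraction protocol gives 6-8 weeks. The control group holds 4 libraries (M1, M2, F1 and F2) labelled only as Control, and the Tbx5 mutant group holds 6 libraries (F1, F2, F3, M1, M2 and M3) labelled for R26Cre removal of Tbx5. The study describes its controls as R26CreERt2 mice and its mutants as Tbx5 fl/fl;R26CreERt2 mice, but the labels of these libraries name no alleles. The same treatment text, tamoxifen at 0.167 mg per day for 3 days with collection of the right atrium 1 week later, is given for all 10. The Cre is tamoxifen-inducible and expressed from the ubiquitous R26 locus, and it excises exon 3 of Tbx5, so that the deletion is not limited to cardiomyocytes and can also occur in glia and neurons. Nothing states that each library is a separate mouse, although the replicates differed by more than sampling noise, and p-values measure the spread between libraries.

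The libraries held 5703775 to 7095141 counts, and 3 counts were taken as the floor of detection. The level of the targeted gene was higher, not lower, in mice labelled Tbx5 mutant. Tbx5 had 1195 to 1505 reads in control and 1010 to 3524 in the mutant group. In CPM (counts scaled to a common library size by TMM) the means were 205 ± 17.8 (SD, n = 4) and 394 ± 83.3 (n = 6). The edgeR adjusted p was 0.000495. Gene counts do not separate exons, so they cannot show whether exon 3 was removed. Every direction is therefore relative to the labels. Xist and the Y-linked Ddx3y ran opposite to the labelled sex in all 4 control libraries. Mutant M3 had 38.9% of its counts on the ribosomal RNA gene Rn45s, against at most 1.49% elsewhere, which left 3484550 other counts. Mutant M2 had the highest summed level of 6 adipocyte genes, 22.1 CPM against at most 4.30 in any other library. Results that rest on M2 or M3 are given with and without them.

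**Figure D1:**
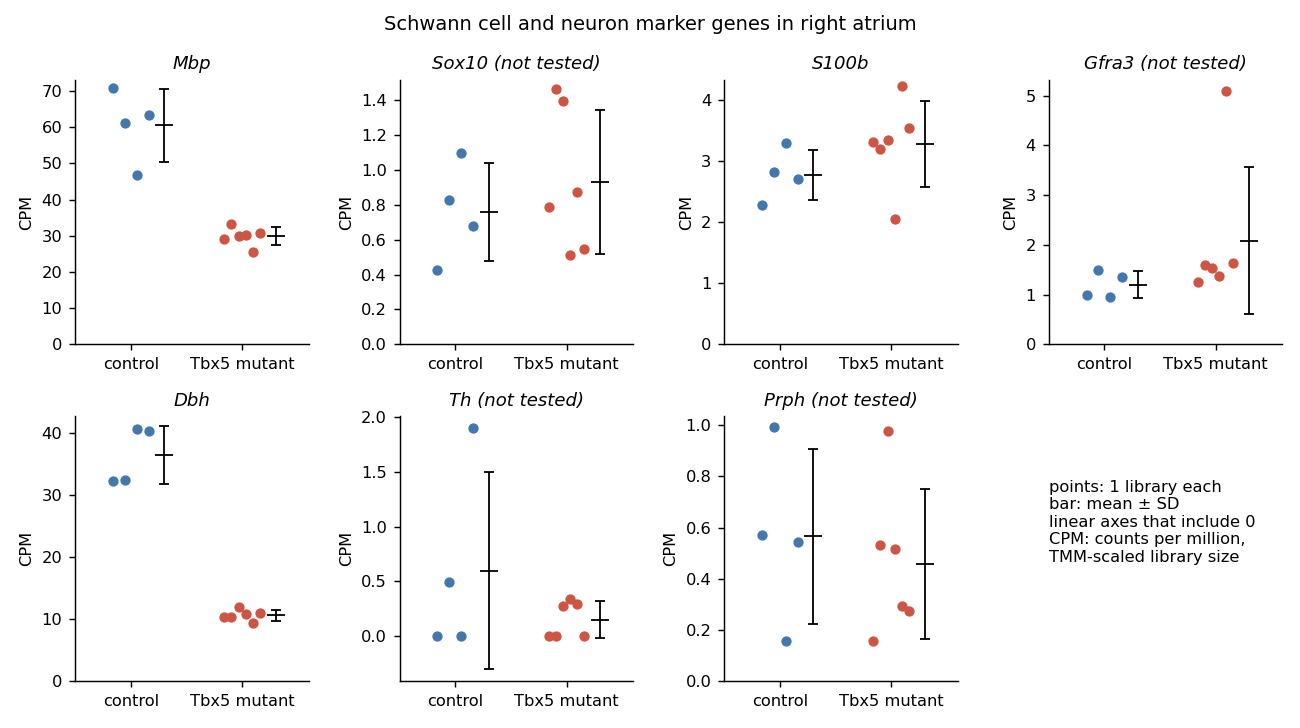
CPM of the 7 genes in each library (points), with the mean and SD per group (bars), on linear axes. The Mbp and Dbh points of the 6 libraries labelled Tbx5 mutant all lie below those of the 4 control libraries, and the other genes overlap.

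Over the whole table, 2049 of 13084 tested genes (15.7%) were called, 937 (7.16%) of them lower and 1112 (8.5%) higher in mice labelled Tbx5 mutant, and 2968 (22.7%) had groups that did not overlap. A call required an edgeR quasi-likelihood adjusted p under 0.05, a fold change over 1.5 and a mean normalized signal over 1 in control. Against this background, 2 of the 3 tested markers were called, both lower, and the same 2 had groups that did not overlap. With so few markers the share cannot be read as a property of the group. In bulk tissue, fewer cells of a type and less RNA per cell cannot be told apart.

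Among the Schwann cell genes, Mbp (ENSMUSG00000041607.17, chromosome 18) encodes myelin basic protein, the cytoplasmic protein that compacts the myelin sheath. It had 496, 370, 298 and 469 reads in control M1, M2, F1 and F2. It had 185, 250 and 214 reads in mutant F1, F2 and F3 and 176, 176 and 113 reads in mutant M1, M2 and M3. Every library labelled Tbx5 mutant was below every control library, also in CPM, where control spanned 46.7 to 70.9 and the mutant group 25.6 to 33.3. The means were 60.6 ± 10.1 (SD, n = 4) and 29.8 ± 2.50 CPM (n = 6), a log2 fold change of −1.02 (SE 0.11) with an edgeR adjusted p of 2.6e-05. The two-sided exact permutation test over the 210 divisions of 10 libraries into 4 and 6 gave p = 0.00952, the smallest it can give. Without mutant M2 and M3 the log2 fold change was −0.98. The gene has 16 annotated transcripts, the longest of 4797 bases, and gene counts do not separate them. Some of these transcripts are known from cells other than myelinating glia, so that Mbp counts alone do not count myelin.

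S100b (ENSMUSG00000033208.7, forward strand, chr10:76253853-76261159, GRCm38) encodes a calcium-binding protein of Schwann cells and satellite glia. It had 16, 17, 21 and 20 reads in the control libraries in the same order, and 21, 24, 24, 12, 29 and 13 in the libraries labelled Tbx5 mutant (F1 to F3, then M1 to M3). The groups overlapped, and the highest and the lowest library were both labelled Tbx5 mutant. The means were 2.77 ± 0.413 (SD, n = 4) and 3.28 ± 0.702 CPM (n = 6), a log2 fold change of 0.24 (SE 0.22) with an edgeR adjusted p of 0.425 and an exact permutation p of 0.229. The summed reads, 74 against 123, gave a ratio of 1.19 (95% interval from counting error only, 0.886 to 1.61). A fall of the size seen for Mbp lay outside this interval, which leaves out the spread between libraries.

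Sox10 (ENSMUSG00000033006.10, reverse strand, chr15:79154908-79165240) encodes the transcription factor that defines the Schwann cell lineage. It had 3, 5, 7 and 5 reads in control and 5, 11, 10, 3, 6 and 2 in the mutant group, so that 1 control and 2 mutant libraries were at the floor. The summed reads were 20 and 37, a ratio of 1.33 (0.750 to 2.41, counting error only), and the exact permutation p was 0.486. This interval, which leaves out the spread between libraries, holds a ratio of 1 as well as a 2-fold rise, but not a 2-fold fall.

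Gfra3 (ENSMUSG00000024366.8, chromosome 18) encodes the receptor for artemin, carried by sensory and sympathetic neurons and by Schwann cells. It had 7, 9, 6 and 10 reads in control and 8, 12, 11, 8, 35 and 6 in the mutant group, where the single high value is mutant M2. The summed reads were 32 and 80, a ratio of 1.79 (1.18 to 2.79), and without mutant M2 they were 32 and 45, a ratio of 1.24 (0.768 to 2.01). The exact permutation p was 0.0571 over all libraries and 0.0952 without mutant M2. Leaving out other single libraries gave p from 0.0317 (without mutant F1) and 0.0476 (without control M2) to 0.143 (without control M1 or F1). M2 is also the library with the high adipocyte genes (Adipoq 62 reads, Cidec 47 and Plin1 31), whose part in the Gfra3 value was not tested.

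None of the other tested myelin genes was called lower. Of 16 listed genes of myelin and myelinating Schwann cells, 7 were tested, 1 was called higher and none lower. The median log2 fold change was 0.27, with 4 genes above 0 and 3 below, beside a median of −0.0050 over all tested genes. The gene called higher was Egr2, the transcription factor that drives the myelin programme and is also induced early in other stimulated cells. It had 12 to 25 reads in control and 18 to 48 in the mutant group, a log2 fold change of 1.29 (SE 0.26, edgeR adjusted p = 0.00239), although the groups overlapped. Pmp22, a membrane protein of compact myelin that fibroblasts and endothelium also express, had 78.9 ± 6.13 and 105 ± 15.6 CPM, with an edgeR adjusted p of 0.0125 but a log2 fold change of 0.41, under the fold threshold. Cnp, an enzyme of uncompacted myelin, had 18.3 ± 1.58 and 15.4 ± 2.01 CPM, a log2 fold change of −0.25 (edgeR adjusted p = 0.119).

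Many of the listed myelin genes were at the floor. Mag, the glycoprotein that faces the axon, had 0 to 5 reads in each of the 10 libraries. In all, 7 of the 16 listed genes had at most 3 reads in every library, and Gjb1 and Gldn had none. The summed level of the 16 genes, Mbp not among them, was 120 to 141 CPM in control and 129 to 187 CPM in the mutant group, most of it from Pmp22.

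Genes that mark Schwann cells in general were better read. Of 18 listed genes of nonmyelinating Schwann cells and satellite glia, 14 were tested, 2 were higher, 1 was lower and 11 were not called. The median log2 fold change was 0.17, with 8 genes above 0 and 6 below. Scn7a, a sodium channel of nonmyelinating Schwann cells and other cells, had 563 to 1484 reads per library and a log2 fold change of −0.11 (edgeR adjusted p = 0.472). Erbb3, the receptor through which axonal neuregulin keeps Schwann cells alive, had 53 to 134 reads and a log2 fold change of −0.31 (edgeR adjusted p = 0.0990). Cdh19, a cadherin of the Schwann cell lineage, had 24 to 99 reads and a log2 fold change of −0.43 (edgeR adjusted p = 0.124).

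The genes called in this list include ones with roles outside glia. Kcna1, a potassium channel subunit found at the juxtaparanodes of myelinated axons and in other excitable cells, had 165 to 266 reads in control and 12 to 55 in the mutant group. It fell from 30.1 ± 4.24 to 5.16 ± 2.06 CPM, a log2 fold change of −2.50 (SE 0.23, edgeR adjusted p = 4.70e-06). Sema3b, a secreted guidance protein, rose from 5.88 ± 1.24 to 12.4 ± 1.73 CPM, a log2 fold change of 1.07 (edgeR adjusted p = 0.000351). Ptprz1, a receptor phosphatase of glial precursors, rose from 2.15 ± 0.50 to 4.38 ± 1.07 CPM (log2 fold change 1.05, edgeR adjusted p = 0.00561). The summed level of the list, 646 to 783 CPM in control and 563 to 742 CPM in the mutant group, overlapped, but Scn7a and Art3, an ectoenzyme, made up 81.5% to 84.7% of it. The other 16 genes summed to 106 to 125 CPM in control and 97.7 to 121 CPM in the mutant group.

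Dbh (ENSMUSG00000000889.8, forward strand, chr2:27165233-27183200) encodes the enzyme that turns dopamine into noradrenaline. It had 226, 196, 259 and 298 reads in control M1, M2, F1 and F2. It had 65, 77 and 86 reads in mutant F1, F2 and F3 and 63, 64 and 40 in mutant M1, M2 and M3. The lowest control library had more reads than the highest library of the mutant group, and in CPM the ranges were 32.3 to 40.6 and 9.32 to 12.0. Dbh fell from 36.4 ± 4.68 (SD, n = 4) to 10.6 ± 0.885 CPM (n = 6), a log2 fold change of −1.78 (SE 0.11) with an edgeR adjusted p of 9.51e-08. The exact permutation p was 0.00952, and without mutant M2 and M3 the log2 fold change was −1.74.

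Th (ENSMUSG00000000214.11, reverse strand, chr7:142892752-142931128) encodes the rate-limiting enzyme of the same pathway. It had 0, 3, 0 and 14 reads in control M1, M2, F1 and F2, and 0, 0, 2, 2, 2 and 0 in the mutant group. 3 of the 4 control libraries and all 6 libraries of the mutant group were at or under the floor. The summed reads were 17 and 6, a ratio of 0.253 (0.0817 to 0.673, counting error only). This ratio rests on control F2, without which the reads were 3 and 6 and the ratio 1.04 (0.222 to 6.42). The exact permutation p was 0.419. Dbh and Th, which act in one pathway, thus stood 196 to 298 against 0 to 14 reads in the same control libraries.

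The sequences upstream of Dbh and Th are shown because Dbh had the largest fall among the 3 tested markers and Th, an enzyme of the same pathway, was barely read. Promoters of Dbh, Th, S100b and Prph were read from RefSeq (GRCm38.p6), and those of Mbp, Gfra3 and Sox10 were not searched. The 250 bases before each RefSeq start were searched on both strands for the following motifs. These were TGACGTCA (the cAMP response element), AGGTGTGA and the AGGTGT within it (T-box), ACAAAG and ACAAT (SOX) and CAGGTG (E-box). Capitals mark the matches. The Dbh stretch, chr2:27165401-27165429 on the forward strand, lies inside exon 1 of the GENCODE transcript Dbh-201, which starts upstream of the RefSeq start. The Th stretch is chr7:142900015-142900245 on the reverse strand. Each is read 5′ to 3′.
Dbh: agggccaccaagACAATtcaattccccac
Th: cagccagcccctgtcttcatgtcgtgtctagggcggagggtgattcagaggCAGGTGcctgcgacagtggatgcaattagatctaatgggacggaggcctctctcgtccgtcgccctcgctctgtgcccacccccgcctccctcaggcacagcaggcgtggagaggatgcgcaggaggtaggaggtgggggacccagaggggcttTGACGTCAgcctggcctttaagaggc

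The Th window held the cAMP response element at −45 to −38 relative to its start, a motif present in 1.55% of 32851 promoters, and CAGGTG at −199 to −194, present in 17.2%. The Dbh window held ACAAT at −94 to −90, which 27.7% of promoters hold. Neither window held a T-box motif, of which AGGTGTGA is in 1.12% and AGGTGT in 11.8% of promoters, and the S100b and Prph windows held none of the 6 motifs. A match is a run of letters, not a measured binding site.

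**Figure D2:**
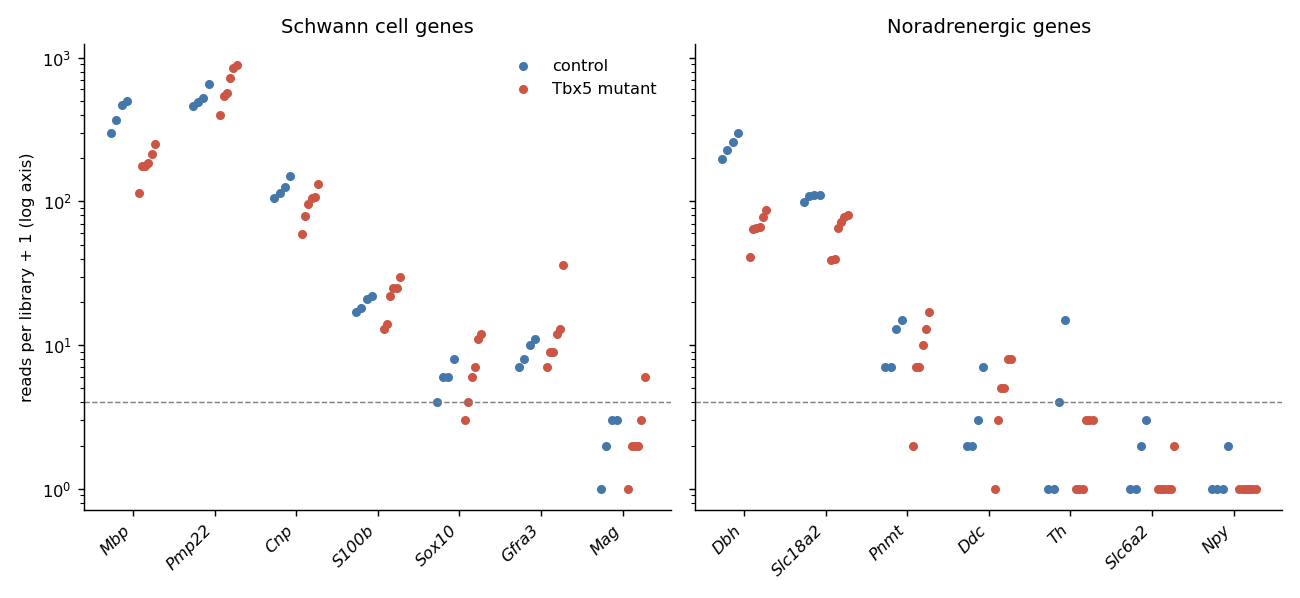
Reads per library plus 1 (log axis) for Schwann cell genes on the left and noradrenergic genes on the right, with 1 point per library and the floor of 3 reads as a dashed line. Mbp and Dbh have 196 or more reads in every control library, whereas Mag, Th, Slc6a2 and Npy lie at or near the floor in most libraries.

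Among the other genes of the noradrenergic pathway, Slc18a2 was the one called lower. Of 16 listed genes of noradrenaline synthesis, storage and uptake, 8 were tested, 2 were higher and 1 was lower, with a median log2 fold change of 0.15. Slc18a2, the vesicular monoamine transporter, had 98 to 110 reads in control and 38 to 79 in the mutant group, and fell from 15.9 ± 0.874 to 9.92 ± 2.20 CPM (log2 fold change −0.68, SE 0.16, edgeR adjusted p = 0.00664). Without mutant M2 its edgeR adjusted p was 0.00305, but the fold was 1.47 and it was no longer called. Cyb561, which passes electrons to DBH in the vesicle and is expressed widely, rose from 11.4 ± 1.13 to 19.7 ± 3.68 CPM (log2 fold change 0.81, edgeR adjusted p = 0.00128). Hand2, a transcription factor of both sympathetic neurons and the heart, rose from 15.3 ± 5.38 to 32.5 ± 8.09 CPM (log2 fold change 1.09, edgeR adjusted p = 0.00235).

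Several defining genes of sympathetic neurons had few or no reads. The noradrenaline transporter Slc6a2 had 0 to 2 reads per library and the neuropeptide Npy 0 to 1. Ddc had 0 to 7 reads. Pnmt, which turns noradrenaline into adrenaline, had 1 to 16 reads and a log2 fold change of −0.08 (edgeR adjusted p = 0.908). Dbh, Slc18a2 and Cyb561, which act at the storage vesicle, had reads well above the floor, the first and second lower and Cyb561 higher in the mutant group, while Slc6a2, Npy and Ddc were at or near the floor.

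Prph (ENSMUSG00000023484.14, forward strand, chr15:99055174-99058978) encodes peripherin, the intermediate filament of peripheral neurons. It had 4, 6, 1 and 4 reads in control and 1, 4, 7, 3, 2 and 1 in the mutant group, with 1 control and 4 mutant libraries at the floor. The summed reads were 15 and 18, a ratio of 0.860 (0.409 to 1.83), with an exact permutation p of 0.590. Other neuronal genes were as low. Of 20 listed genes of neurons and axons, 4 were tested and 11 had at most 3 reads in every library, among them the neurofilaments Nefl, Nefm and Nefh and the synaptic protein Snap25.

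The neuronal gene that was called was Tubb3, a neuronal tubulin that other cells also make at low level. It had 2, 9, 6 and 4 reads in control and 25, 12, 24, 5, 37 and 12 in the mutant group, a log2 fold change of 1.93 (SE 0.52, edgeR adjusted p = 0.0121), and the groups overlapped. Map2, a dendritic microtubule protein, had a log2 fold change of 0.56 (edgeR adjusted p = 0.122), and Uchl1, a neuronal ubiquitin hydrolase, of 0.29 (edgeR adjusted p = 0.544). The summed level of the list was 12.1 to 13.8 CPM in control and 12.3 to 21.4 CPM in the mutant group.

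Most cholinergic markers, which would mark the intracardiac ganglia, were at or near the floor. Of 10 listed genes, 6 had at most 3 reads in every library, with Chat, the enzyme of acetylcholine synthesis, at 0 to 1 and its vesicular transporter Slc18a3 at 0. The only gene tested was Ache, which hydrolyses acetylcholine and is also made by muscle. It had 51 to 86 reads in control and 21 to 43 in the mutant group, and fell from 9.48 ± 1.81 to 4.92 ± 1.22 CPM (log2 fold change −0.96, SE 0.20, edgeR adjusted p = 0.00242). Chrnb2, a nicotinic receptor subunit, had 1 to 10 reads and was not tested.

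Of 15 listed neurotrophic ligands and receptors, 5 were tested, 2 were higher and none was lower, with a median log2 fold change of 0.23. Artn, the ligand of GFRA3, had at most 1 read per library, and the shared receptor kinase Ret had 0 to 7. Nrg1, the neuregulin that ERBB3 binds and that cardiac endothelium also makes, rose from 1.70 ± 0.583 to 4.48 ± 1.84 CPM (log2 fold change 1.42, SE 0.34, edgeR adjusted p = 0.00650). Bdnf, a neurotrophin, rose from 1.26 ± 0.604 to 2.93 ± 0.761 CPM (log2 fold change 1.21, SE 0.32, edgeR adjusted p = 0.0108), with 6 to 15 and 10 to 29 reads and overlapping groups. Over all 6 lists, 39 of 95 genes were tested, of which 8 were higher and 3 lower, beside 8.5% higher and 7.16% lower over all tested genes. Single lists, with 1 to 14 tested genes, are too short for their shares to be read against that background.

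**Figure D3:**
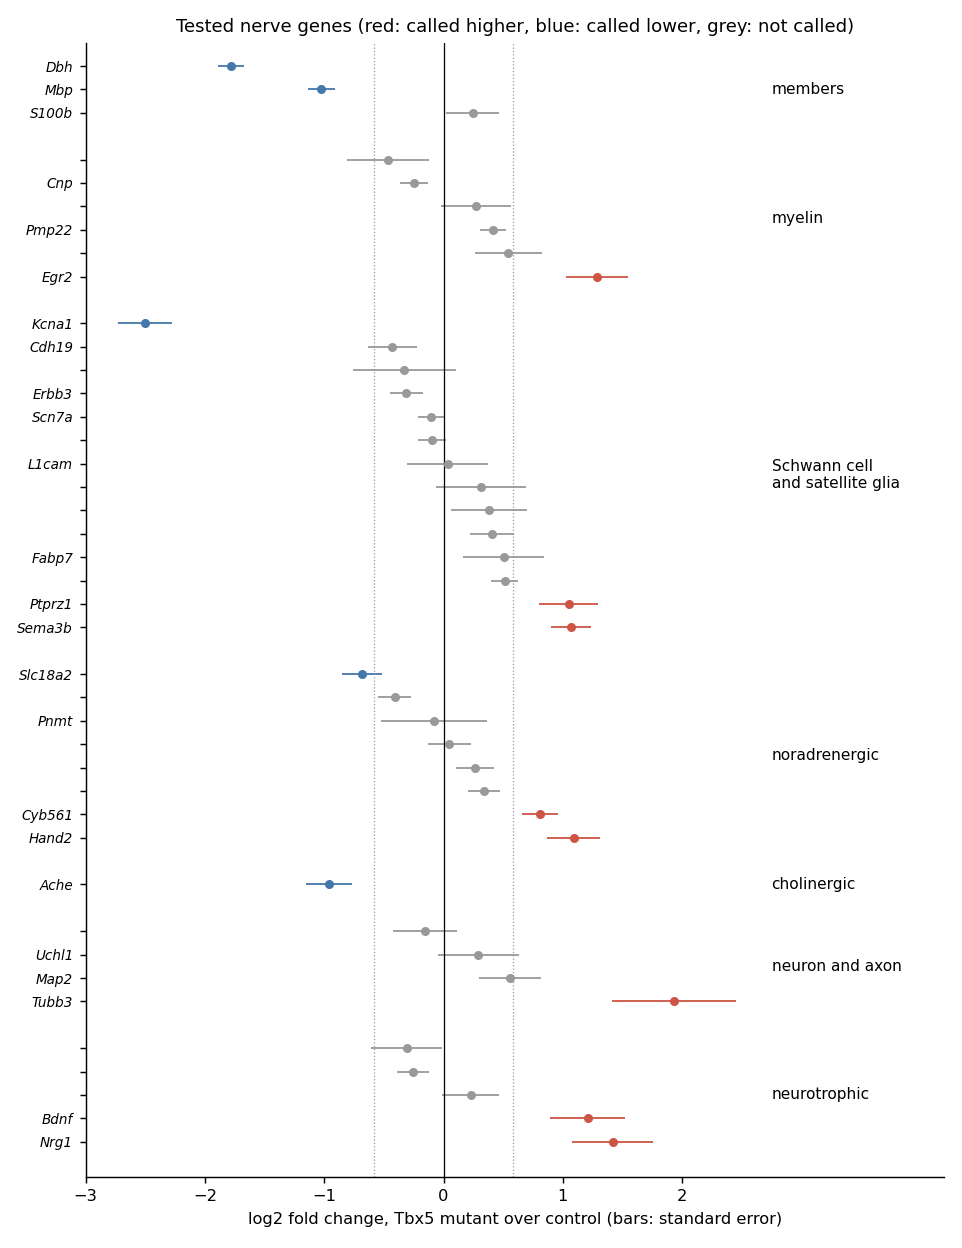
Log2 fold change, Tbx5 mutant over control, with its standard error, for the 3 tested markers and 38 of the 39 tested genes of the 6 lists, with names for the genes described, and with dotted lines at the 1.5-fold threshold. Dbh and Mbp lie left of the threshold, S100b lies near 0, and 8 list genes lie to the right and 3 to the left among those called.

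Per kilobase of the longest transcript, the levels in control ran Dbh 14.3 ± 1.84, Mbp 12.6 ± 2.11, S100b 1.87 ± 0.279 and Gfra3 0.599 ± 0.134 CPM per kb (SD, n = 4). Th, Prph and Sox10 followed at means of 0.307, 0.304 and 0.272. Without control F2 the mean of Th was 0.0848 (n = 3), and its place above Prph and Sox10 rests on that library. Dbh and Mbp overlapped, as did each neighbour from Gfra3 to Sox10, whereas S100b was apart from both sides. In the mutant group Mbp led with 6.22 ± 0.521 and Dbh followed with 4.15 ± 0.347, without overlap. S100b (2.21 ± 0.473) and Gfra3 (1.04 ± 0.743) overlapped through mutant M2 alone, without which Gfra3 was at 0.741 ± 0.0792 (n = 5) and lay below every S100b value. Sox10, Prph and Th were at 0.335, 0.245 and 0.0780 CPM per kb in the mutant group.

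The genes whose levels most resembled each readable marker were found from log2 CPM after removal of the group means, over 10 libraries and 10951 genes. They were H2afy2, Traf4 and Trub2 for Mbp (Pearson r of 0.92, 0.92 and 0.90), Oxnad1, Srprb and Bcl7a for Dbh (0.92, 0.92 and 0.91) and Fam131b, Cyp27a1 and Dtwd1 for S100b (0.96, 0.93 and 0.92). Only genes with a mean CPM of at least 5 were compared, which left out many genes of the 6 nerve lists. That no gene of these lists was among the 9 is therefore not a result. The correlations are descriptions of the spread within groups, where the points share depth and composition, and they are the highest of 10951. Of the 9 genes only Bcl7a was called, with a log2 fold change of −0.75.

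Some markers of other cells were called between the groups too. Over all tested genes 8.5% were higher and 7.16% lower, and these lists are too short for their shares to be read against that background. Of 6 cardiomyocyte genes 2 were lower and 1 higher, with a summed level of 61172 to 73004 CPM in control and 47813 to 62414 in the mutant group. Of 6 macrophage genes 4 were higher, with sums of 384 to 475 and 547 to 780 CPM that did not overlap. Among 6 genes of melanocytes, which share a neural crest origin with Schwann cells, 2 were tested and Mlana fell from 42.7 ± 7.29 to 3.83 ± 1.82 CPM (log2 fold change −3.56, edgeR adjusted p = 1.69e-07), while Mitf, the other tested gene, had 78.2 ± 7.55 and 94.2 ± 14.9 CPM (log2 fold change 0.27, edgeR adjusted p = 0.106). Dct (13 and 29 summed reads) and Pmel (24 and 24) were not tested, and Tyr had at most 1 read. Of 6 genes of central glia (oligodendrocytes, which also express Mbp, and astrocytes), the astrocyte gene Aqp4 was the one tested and it was not called (log2 fold change 0.21, edgeR adjusted p = 0.491), with sums over the list of 14.4 to 19.8 and 13.9 to 31.9 CPM, and the oligodendrocyte gene Opalin was at 0. Adipocyte and lymphocyte genes were not tested, with sums of 0.627 to 4.30 and 2.03 to 4.43 CPM in control and 0 to 22.1 and 1.02 to 3.76 CPM in the mutant group. Fibroblast genes (2 of 6 higher), endothelial genes (1 of 6 higher) and epicardial genes (none of 5) were also read. The part of these in the Mbp and Dbh values was not tested.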

How the data were processed

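RNA-seq of 10 right atrial libraries was used as deposited. The authors supplied 1 table with read counts per gene and a normalized signal, the count divided by a size factor per library. The submitters' processing notes name FastQC, TopHat2 2.0.11, featureCounts, DESeq2 and mm10, without order. The annotation and the strand setting of these right atrial libraries are not given in the sources used here, and the labels describe both mRNA and total RNA kits. Some genes of the lists are counted but not reported here by name. Columns with the authors' own comparison (fold changes and p-values) were not used. The 7 markers and the gene lists were chosen with earlier results of these data known.

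Counts were fitted over the whole table with edgeR 4.0.16 in R 4.3.3 (filterByExpr with a minimum count of 10 and a minimum total of 15, TMM, quasi-likelihood test, no covariates, prior count 0.125) and adjusted by Benjamini-Hochberg over the 13084 genes tested. The procedure was tested on simulated data. For each of the 7 markers, mean CPM was set against all 210 assignments of the libraries (exact permutation test, two-sided, scipy 1.17.1). Intervals of summed reads are exact binomial 95% intervals and, like the floor of 3 counts (4.23e-05% to 5.26e-05% of a library), cover counting error only, since reads carry no molecular identifiers. Genes named are the 7 markers, Tbx5, the called genes of each list (at most 3 in each direction; where fewer than 2 were called, the 2 with the highest mean) and the 3 genes most like each readable marker with a mean CPM of at least 5. Scn7a, Erbb3, Cdh19, Art3, Mlana, Mitf, Aqp4 and the genes given only by reads were named after their values were seen. Alternatives were DESeq2 1.42.0, limma 3.58.1 with a trend, other scalings, filters, prior counts (0.1 and 5) and thresholds, sex as a covariate, a replicate block, removal of a length trend (lowess span 0.4, lengths from GENCODE M21 for 20961 genes), and each library left out. Added after seeing the data were exchanged sex labels of the controls, the fit without mutant M2 and M3, and the authors' size factors.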

Additional observations from a re-analysis of the deposited data

Results flagged for a closer look

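Of 46 groups of values examined for a library far from the others of its group, 5 were marked, where chance marks about 1 in 20, or 2.3. Gfra3 was at 5.10 CPM (35 reads) in mutant M2, and at most 1.63 in the other mutant libraries. Slc18a2 was at 5.68 CPM (39 reads) in the same library, and at least 10.1 in the others. Egr2 was at 3.38 CPM (25 reads) and Pmp22 at 88.0 CPM (650 reads) in control F2, against at most 2.04 and 76.8 in the other controls. Sema3b was at 15.6 CPM (112 reads) in mutant F3, against at most 12.5. No interaction of group and sex passed the threshold in Mbp, Dbh or S100b (edgeR adjusted p of at least 0.568, with the sex labels as given or exchanged in the controls).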

How the results depend on the processing

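Mbp and Dbh, 2 of the 7 markers, were called lower in each of 29 alternatives, and no other marker was called. Over 26 alternatives the log2 fold change of Mbp ran from −1.13 to −0.93 and that of Dbh from −1.91 to −1.71. Over 25 alternatives S100b ran from 0.035 to 0.33 with adjusted p from 0.228 to 0.935. With each library left out in turn, 1807 to 2205 genes, 2 markers and 11 to 12 nerve list genes were called. A fold over 2 gave 906 genes and no fold threshold 4096, against 2049. The nerve list calls, 11 of 39, ranged from 8 to 14, and none turned direction. Without mutant M2 the list lost Slc18a2 and gained Ntf3. Tubb3 and Bdnf were not tested at a mean count of at least 20. With the replicate block (number and labelled sex), 1957 genes, 11 nerve list genes and 2 markers were called, and Mbp was at −1.02, Dbh at −1.84 and S100b at 0.19. Libraries with the same number and labelled sex did not deviate together (correlations of −0.047 to 0.036). With the sex labels of the controls exchanged, the correlations were 0.276 (control M1 with mutant F1) and 0.265 (control F1 with mutant M1). They were 0.223 for control F2 with mutant M2 and 0.030 for control M2 with mutant F2. Whether the numbers pair the libraries is thus not settled, and a block on the exchanged labels was not fitted. Without the expression filter, the adjusted p was 0.565 for Sox10, 0.194 for Gfra3, 0.201 for Th and 0.811 for Prph, and DESeq2 gave 0.674, 0.213, 0.296 and 0.842.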

Other observations

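Of the 102 markers and nerve list genes, 66 had at least 10 reads over the 6 libraries labelled Tbx5 mutant, and 25 of these were highest in mutant M2, against 4 to 11 in each other library. Among the 25 were the glial genes Gfra3, S100b, Cdh19, Foxd3 and Fabp7 and the neuronal genes Tubb3 and Uchl1. Fabp7, a fatty acid binding protein of satellite glia, had 37 reads in M2 and 12 to 18 in the other 5, and L1cam, an adhesion protein of nonmyelinating Schwann cells and axons, 34 against 6 to 22. Chrna3, the main nicotinic subunit of autonomic ganglia, had 5 reads in M2 and at most 1 in any other library. The same library had the most Adipoq, Plin1 and Cidec reads. Mbp and Dbh were not among the 25, and Mbp (25.6 CPM), Dbh (9.32 CPM) and Slc18a2 (5.68 CPM) were lowest of all 10 libraries in M2. These genes were picked after their values were seen and no test was made.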
